A study of Mus musculus with 96 samples.

Results

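The myotubes examined here received oligomycin on top of the uncoupler BAM15 and were compared with myotubes that received BAM15 alone. The members are 6 RNA-seq libraries of 96 in the series, 3 with both compounds and 3 with BAM15, chosen by their labels. C2C12 is an established mouse muscle cell line whose myoblasts fuse into myotubes. All 6 came from untransduced C2C12 myotubes, which had spent 4 days in medium with 2% dialyzed horse serum, as in all groups used here, and were then treated for 10 hr. Oligomycin A, an inhibitor of ATP synthase, was used at 1 µM, and BAM15 at 0.5 µM, a dose chosen by the study to uncouple mildly. DMSO was the vehicle. Reference groups, also 3 libraries each, were myotubes given DMSO or oligomycin in ambient oxygen, piericidin (a complex I inhibitor, 0.5 µM) with or without oligomycin, and DMSO or oligomycin within 5% oxygen that began the night before. Antimycin, a complex III inhibitor, was given to a further group of 3, which entered the count filter and the shared estimate of the spread only. All of these are cultures of a single line, and nothing in the labels says that the 3 samples of a group came from separate cultures, so p-values measure the spread between these samples, which may be technical.

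ATP synthase lets protons flow back across the mitochondrial inner membrane and makes ATP from that flow. Oligomycin closes this path, which slows respiration and raises the membrane potential, while an uncoupler such as BAM15 carries protons across the membrane and opens a path that does not need ATP synthase. The comparison therefore asks what blocking ATP synthase still does to transcripts in cells whose membrane is already leaky. The integrated stress response (ISR) is the program that follows phosphorylation of the translation factor eIF2α. Its transcription factor ATF4 is known to raise genes of amino acid synthesis, amino acid transport and tRNA charging, and DDIT3 (CHOP) and ATF3 act further along the same pathway.

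The 6 libraries held 9789248 to 12204367 estimated counts each, and 12491 of 54146 listed genes passed the filter of 16 counts in every replicate of at least 1 of 9 myotube groups. None of them had a count for the transgenes used elsewhere in the study. Summed myotube markers ranged from 20720 to 21720 counts scaled to library size (CPM) with BAM15 and from 19330 to 20940 CPM with both compounds, and 1 of 14, the skeletal actin gene Acta1, passed the test. Markers of cycling myoblasts summed to 139 to 165 CPM with BAM15 and 141 to 160 CPM with both compounds, and 0 of 7 passed. The 6 markers of undifferentiated or reserve cells summed to 122 to 137 CPM and 112 to 124 CPM, and the 4 fibroblast markers to 1070 to 1128 CPM and 1030 to 1105 CPM, in the same order, with 0 called in either list. Macrophage markers summed to at most 4.81 CPM in any of the 6 libraries, with Adgre1 at or near 0. Along the third principal component of a PCA with the DMSO and oligomycin groups, BAM15 replicate 2 (10.1) and replicate 1 of oligomycin with BAM15 (-10.2) stood farthest from 0, and counts that moved by over 1.5 times without either are given with the result.

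Oligomycin changed few transcripts when BAM15 was present. Of 12491 genes, 212 (1.7%) passed an adjusted p of 0.05 in edgeR's quasi-likelihood test, 73 (0.584%) higher and 139 (1.11%) lower than with BAM15 alone. Without BAM15, oligomycin against DMSO gave 4164 genes (33.3%). The median absolute log2 fold change of the 212 genes was 0.29, 26 reached 1.5-fold and 3 (0.024%) reached 2-fold. At an unadjusted p under 0.05 there were 1453 of the 12491 genes. In all 212 the 3 libraries with both compounds lay on one side of the 3 with BAM15, which was also so for 6.29% (above) and 10.1% (below) of all genes tested. The count was 108 without BAM15 replicate 2, 117 without replicate 1 of oligomycin with BAM15 and 134 without its replicate 2. A fit of only these 6 libraries gave 72 genes, 40 higher and 32 lower, and the same fit with the replicate number as a block gave 196, 110 higher and 86 lower. Without the count filter there were 393 genes, 71.2% of them higher. The balance of directions therefore depends on the filter and on which libraries are fitted.

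On the first component, which held 36.1% of the variance of 12261 genes, DMSO libraries averaged -7.64 ± 0.51 (SD, n = 3) and oligomycin libraries 16.9 ± 1.39. BAM15 libraries averaged -5.63 ± 1.32 and libraries with both compounds -3.59 ± 1.78, with overlapping values. The shift on top of BAM15 was 8.33% of the shift oligomycin caused alone, on an axis that the oligomycin libraries themselves define, and turned negative (down to -23.4%) when any 1 of the 3 oligomycin libraries was left out. On the second component (30.7%), BAM15 libraries averaged 8.91 ± 2.84, libraries with both compounds 6.71 ± 3.46 and DMSO libraries -13.5 ± 1.12. Over all 12261 genes, the distance between group means was 10.4 rlog units for oligomycin on top of BAM15, 27.1 for oligomycin alone and 22.9 for BAM15 alone, distances to which library noise also adds.

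**Figure D1:**
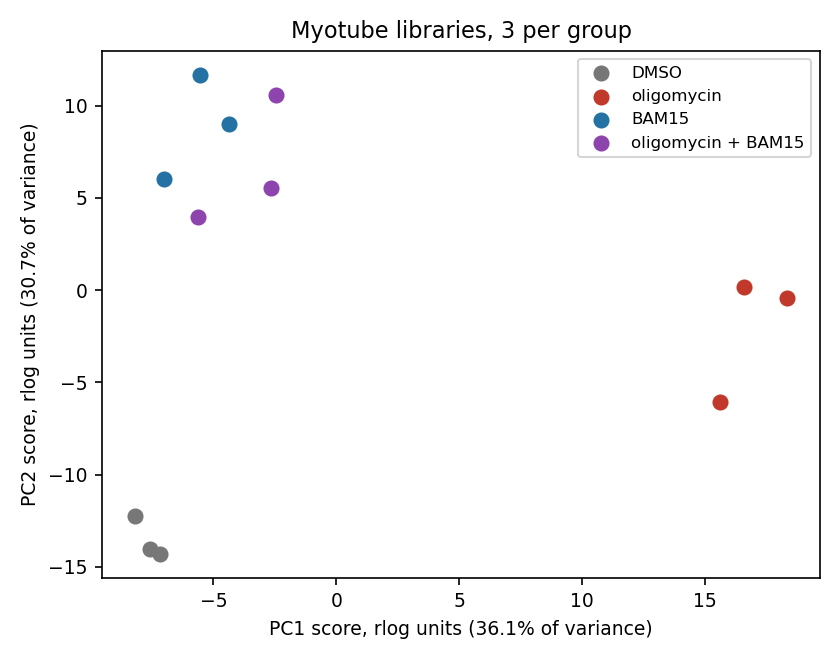
PCA of 12 myotube libraries, 3 per group, on rlog counts, with the first component on the x axis and the second on the y axis. Libraries with oligomycin and BAM15 lie beside those with BAM15 alone, while the 3 oligomycin libraries lie alone at the right.

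Most genes that rose on top of BAM15 also rose with oligomycin alone. These comparisons share no library. Of the 73 higher genes, 61 (83.6%) were called higher with oligomycin against DMSO, against 16.9% of all genes, and 10 were called lower there. The response was called smaller on top of BAM15 for 51 of the 73 and more positive for 10. Their median log2 fold change was 0.37 on top of BAM15 and 1 with oligomycin alone. Of the 139 lower genes, 83 (59.7%) were called lower with oligomycin alone, against 16.4% of all genes, and 8 were called higher, with medians of -0.27 and -0.22. The response was called less negative on top of BAM15 for 23 of the 139 and more negative for 35. Taken from the other side, 717 genes (5.74%) were called at least 2-fold changed with oligomycin alone, 332 of them higher. On top of BAM15, 37 of them were called higher, against 0.584% of all genes, and none lower, with medians of 1.38 and 0.18. Of the 385 genes called at least 2-fold lower with oligomycin alone, 4 were called lower on top of BAM15, a share near the 1.11% of all genes called lower, with medians of -1.33 and 0.03. Across all 12491 genes the log2 fold changes of the 2 comparisons had a Pearson's r of 0.11 and a Spearman's rho of 0.138, given as a description since genes are not independent.

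**Figure D2:**
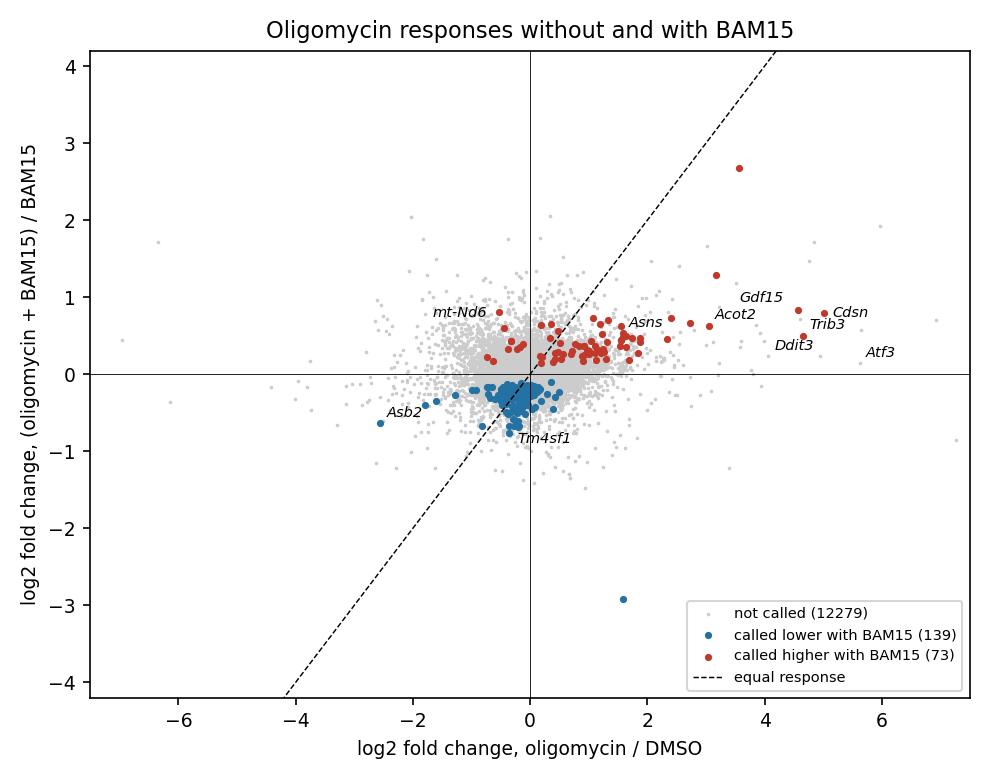
Each point is a gene, with the log2 fold change of oligomycin against DMSO on the x axis and of oligomycin with BAM15 against BAM15 on the y axis. The dashed line marks equal responses; the 73 genes called higher on top of BAM15 mostly lie right of 0 and below this line.

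Among ISR regulators, Atf4 and Trib3 rose slightly, while Atf3 and Ddit3 did not pass the test. Atf4 and Ddit3 changed by similar amounts (log2 0.19 and 0.23), so the split between them rests on the threshold. Of 14 tested members of a list of ISR transcription factors and feedback genes, 6 were called higher (0.584% of all genes) and 0 lower. The list had a median log2 fold change of 0.24. Atf4, the transcription factor of the response, was at 306, 314 and 317 CPM with BAM15 and at 341, 371 and 353 CPM with both compounds. The ranges did not touch, and the log2 fold change was 0.19 ± 0.05 (SE, adjusted p = 0.031). With oligomycin alone Atf4 stood at 650 ± 23.9 CPM, against 202 ± 2.81 CPM with DMSO (SD, n = 3). Trib3, a pseudokinase that feeds back on ATF4, was at 64.1, 60.2 and 66 CPM with BAM15 and at 84.6, 94.2 and 90.2 CPM with both, a 1.41-fold rise (log2 0.50 ± 0.08, adjusted p = 0.000442). Nupr1, a small stress-induced chromatin protein (log2 0.44), Sesn2, a leucine sensor upstream of mTORC1 (0.46), Eif4ebp1, a repressor of cap-dependent translation (0.20), and Gpt2, the mitochondrial alanine aminotransferase (0.24), rose as well.

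Several regulators that oligomycin alone raised strongly did not pass here. Atf3 was at 12.7, 16 and 19.5 CPM with BAM15 and at 16, 18.2 and 19.1 CPM with both compounds. These values overlapped, and the log2 fold change of 0.15 had a 95% interval of -0.14 to 0.44 (adjusted p = 0.751), against 5.62 with oligomycin alone. Ddit3, which encodes CHOP, was at 74.5, 82.5 and 79.5 CPM with BAM15 and at 85.2, 104 and 89.4 CPM with both, without overlap. Its log2 fold change was 0.23 (interval 0.08 to 0.38, adjusted p = 0.13), and DESeq2's Wald test called it (adjusted p = 0.028). Ppp1r15a, the phosphatase subunit GADD34 that reverses eIF2α phosphorylation, had a log2 fold change of 0.14 (interval -0.0025 to 0.29, adjusted p = 0.441), and Chac1, which degrades glutathione, one of 0.24 (adjusted p = 0.24). BAM15 alone had itself raised Atf3 4.36-fold and Ddit3 4.15-fold over DMSO, and this comparison (3177 genes, 25.4%) shares the BAM15 libraries. The call of Atf4 was lost in 5 of 6 fits that left out a library (adjusted p 0.0675 to 0.213 where lost). Over all 13 alternative fits it was lost in 7. The list's 6 calls fell to 2 without BAM15 replicate 2, 3 without BAM15 replicate 1, 3 without replicate 3 of oligomycin with BAM15 and 2 in the fit of 6 libraries.

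**Figure D3:**
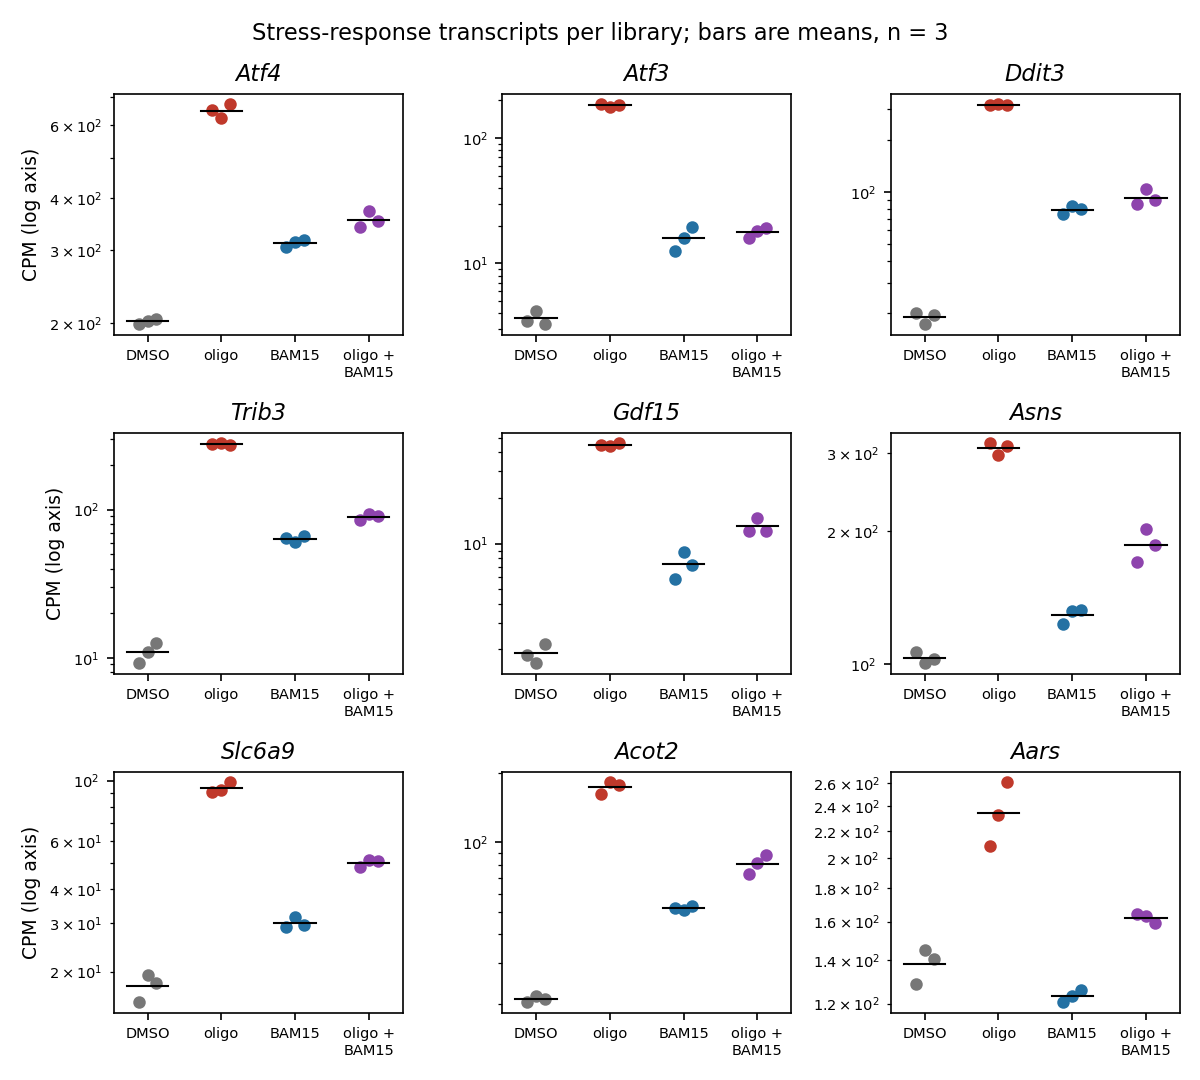
CPM on a log axis for 9 stress-response transcripts in 4 groups of 3 libraries; points are libraries and bars are means. Oligomycin alone gives the highest level of each, and libraries with both compounds sit close to BAM15 alone, above it without overlap for every gene but Atf3, though the rise of Ddit3 did not pass the test.

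Of the secreted factors and receptors linked to the ISR, 1 of 6 rose, against 0.584% of all genes called higher. Gdf15, a stress cytokine, was at 5.82, 8.8 and 7.22 CPM with BAM15 and at 12.1, 14.8 and 12.1 CPM with both compounds, 1.78-fold higher (log2 0.83 ± 0.17, adjusted p = 0.00921). Without BAM15 replicate 1 or without replicate 2 of oligomycin with BAM15 its adjusted p was 0.068 and 0.0685, and 0.0987 in the fit of 6 libraries. Fgf21, a hormone that mitochondrial stress in muscle is known to raise, was at 36, 39.8 and 39.5 CPM with BAM15 and at 37.3, 47.6 and 39.9 CPM with both, ranges that overlapped (log2 0.11, interval -0.06 to 0.29, adjusted p = 0.654). With oligomycin alone Fgf21 stood at 175 CPM, against 28.7 CPM with DMSO.

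Of 13 tested genes of amino acid synthesis and mitochondrial one-carbon metabolism, 8 were called higher, against 0.584% of all genes, and 0 lower. Their median log2 fold change was 0.42. Asns, asparagine synthetase, was at 123, 132 and 132 CPM with BAM15 and at 170, 203 and 186 CPM with both compounds, a rise of 0.53 ± 0.06 on the log2 scale (adjusted p = 1.88e-06). The serine synthesis enzymes Phgdh, Psat1 and Psph rose by 0.36, 0.30 and 0.45, and the mitochondrial folate enzymes Shmt2, Mthfd2 and Aldh1l2 by 0.42, 0.49 and 0.42. Pck2, the mitochondrial form of phosphoenolpyruvate carboxykinase, rose by 0.49. Phgdh was at 227, 235 and 214 CPM with BAM15 and at 280, 301 and 286 CPM with both. Phgdh averaged 210 CPM with DMSO, and its change with BAM15 alone did not pass (adjusted p = 0.0974), whereas Pck2 averaged 60.6 CPM with DMSO and was at 107 to 121 CPM with BAM15. Mthfd1l, also of the mitochondrial folate pathway, had a log2 fold change of 0.00 (interval -0.18 to 0.19). The list had 7 to 8 calls in fits that left out a library and 8 in the fit of 6 libraries.

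Some amino acid transporters and tRNA synthetases also rose. Slc6a9, the glycine transporter GLYT1, was at 29.2, 31.7 and 29.7 CPM with BAM15 and at 48.5, 51.2 and 50.6 CPM with both compounds, 1.66-fold higher (log2 0.73 ± 0.10, adjusted p = 0.000136). Slc7a1 for cationic amino acids (log2 0.48), Slc1a5 for neutral amino acids (0.52) and Slc3a2, the shared heavy chain of several transporters (0.28), rose too. Thus 4 of 9 tested transporters were called higher, against 0.584% of all genes. This count was 3 with the replicate block, 2 in the fit of 6 libraries with or without the block, and 2 without BAM15 replicate 2 or without replicate 2 of oligomycin with BAM15. Of 20 cytosolic tRNA synthetases, 10 were called higher, against 0.584% of all genes, and 0 lower. The 10 were Aars, Eprs, Gars, Iars, Lars, Nars, Sars, Tars, Wars and Yars, with log2 fold changes of 0.26 to 0.39. Aars, for alanine, was at 121, 123 and 126 CPM with BAM15 and at 164, 163 and 159 CPM with both, and BAM15 alone had lowered it from 138 CPM with DMSO (adjusted p = 0.0407). Dars, Qars, Hars and Kars, for aspartate, glutamine, histidine and lysine, had log2 fold changes of 0.00, -0.11, -0.07 and -0.11 and did not pass. The count of synthetases was 6 without BAM15 replicate 1 and 6 in the fit of 6 libraries.

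The response element that ATF4 is known to bind was looked for in the promoters of these 5 ISR lists, of whose members 29 were called higher. The letters TGATGNAA were searched on both strands from 250 bases before to 50 bases after each RefSeq start (build GRCm38.p6). They occurred in 9 of the 23 called members with a promoter in the table (39.1%) and in 8 of 25 members that were not called (32%), against 3.97% of 32851 promoters of the same length. A match is a description of these letters and no evidence of binding. The stretches shown lie upstream of the start of 3 genes that rose and of Atf3, which did not pass, with the match in capitals, read on the gene's own strand, so that a match on the other strand appears as its reverse complement.
Asns, chr6:7693210-7693277, minus strand: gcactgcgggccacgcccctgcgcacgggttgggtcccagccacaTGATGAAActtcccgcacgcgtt
Aars, chr8:111033685-111033782, plus strand: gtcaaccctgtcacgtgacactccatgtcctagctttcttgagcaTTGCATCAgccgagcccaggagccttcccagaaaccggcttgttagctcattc
Nupr1, chr7:126625528-126625625, minus strand: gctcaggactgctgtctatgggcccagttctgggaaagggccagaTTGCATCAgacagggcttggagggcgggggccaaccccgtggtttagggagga
Atf3, chr1:191183391-191183488, minus strand: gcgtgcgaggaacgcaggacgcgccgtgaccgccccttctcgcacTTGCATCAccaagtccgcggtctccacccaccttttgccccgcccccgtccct

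Several transcripts encoded by mitochondrial DNA rose on top of BAM15. These mRNAs encode 13 core subunits of the respiratory chain and ATP synthase. Of the 13, 7 were called higher (0.584% of all genes) and 0 lower, with a median log2 fold change of 0.32, and the 7 were mt-Nd1, mt-Nd2, mt-Nd4, mt-Nd5, mt-Nd6, mt-Cytb and mt-Co1. The complex I subunit mt-Nd5 was at 444, 396 and 395 CPM with BAM15 and at 554, 536 and 582 CPM with both compounds, a rise of 0.44 ± 0.06 on the log2 scale (adjusted p = 3.55e-05). Cytochrome b, mt-Cytb, was at 604, 548 and 567 CPM with BAM15 and at 772, 770 and 716 CPM with both (log2 0.39 ± 0.04, adjusted p = 1.24e-06). In both genes every library with both compounds lay above every library with BAM15. Levels of mt-Co2, mt-Co3 and mt-Atp6 had log2 fold changes of 0.07, 0.07 and -0.02 and did not pass. With oligomycin alone, 9 of the 13 were called lower (16.4% of all genes) and 2, mt-Co1 and mt-Co2, higher (16.9%), and the difference between the 2 responses was called for 9 of 13, all toward a higher response with BAM15 (8.21% of all genes). BAM15 alone had lowered 10 of 13 against DMSO, where 12.2% of all genes were called lower, in a comparison that shares the BAM15 libraries. Thus mt-Nd5 averaged 643 CPM with DMSO, and the values with both compounds stayed below that. The largest rise, mt-Nd6 (log2 0.60), belongs to a gene on the minus strand (chrM:13552-14070) whose end overlaps mt-Nd5 on the plus strand (chrM:11742-13565), and Smart-seq2 libraries do not mark strand. The list had 5 to 7 calls when a library was left out. Nuclear-encoded respiratory chain subunits (23 tested) and ATP synthase subunits and assembly factors (19 tested) had 0 calls in edgeR and in DESeq2, with medians of -0.06 and -0.07, and 4 and 5 members at an unadjusted p under 0.05, against 1453 of all 12491 genes.

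**Figure D4:**
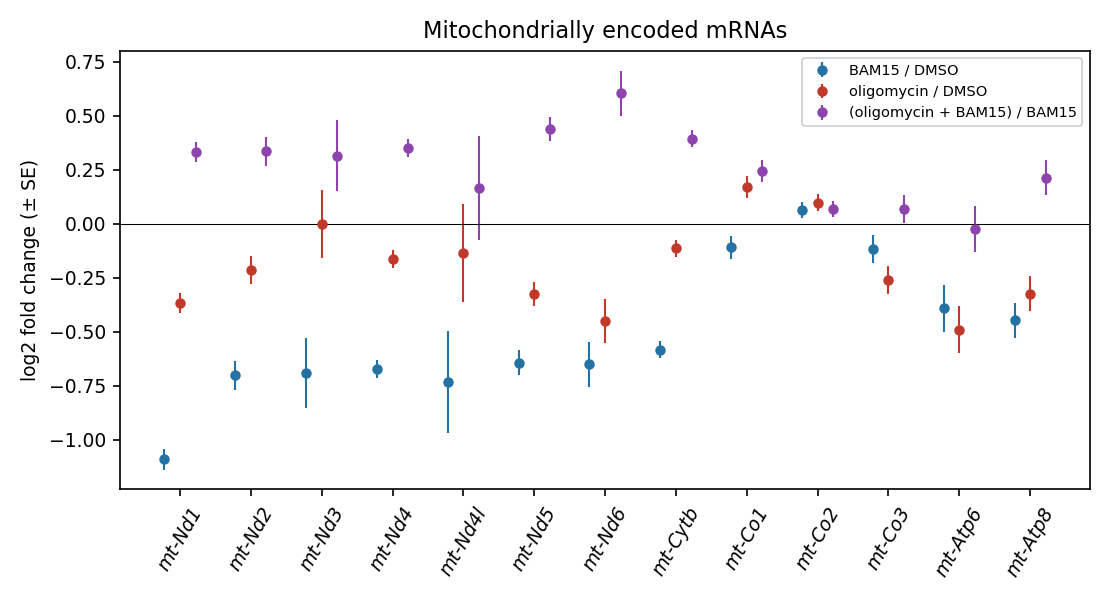
Log2 fold changes with SE of the 13 mitochondrially encoded mRNAs in 3 comparisons of 3 against 3 libraries; BAM15 against DMSO and oligomycin with BAM15 against BAM15 share the BAM15 libraries. The transcripts mt-Nd1, mt-Nd2, mt-Nd4, mt-Nd5, mt-Nd6 and mt-Cytb lie below 0 with BAM15 alone and above 0 when oligomycin is added to it.

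The genes that fell on top of BAM15 included cytoskeletal actins and genes of the actin filament, many of them known targets of the transcription factor SRF. A list of 28 such genes was drawn up after the values had been seen, so its count describes and supports nothing. Of these, 16 were called lower (9 in the fit of 6 libraries), against 1.11% of all genes, and 0 higher. Their median log2 fold change was -0.23. Actb, cytoplasmic β-actin, was at 2283, 2317 and 2290 CPM with BAM15 and at 1804, 1780 and 1795 CPM with both compounds. Its log2 fold change of -0.36 ± 0.02 and that of γ-actin, Actg1 (-0.40 ± 0.02), had the smallest adjusted p of all genes (9.28e-12 each). Tagln, the actin-binding protein transgelin, was at 201, 206 and 199 CPM with BAM15 and at 143, 142 and 141 CPM with both (log2 -0.51). Cnn2, calponin 2 (-0.49), Tpm4, a cytoskeletal tropomyosin (-0.41), Flna, filamin A (-0.28), and the smooth muscle actins Acta2 (-0.39) and Actg2 (-0.69) also fell. With oligomycin alone Actb, Tagln, Cnn2 and Acta2 fell less (-0.19, -0.23, -0.24 and -0.16), and the difference between the responses was called for each. Actin coding sequences are nearly identical, so how reads were divided among Actb, Actg1, Acta1, Acta2, Actc1 and Actg2 is uncertain. In a second list chosen after the values were seen, of 12 targets of the coactivator YAP, 2 fell, against 1.11% of all genes. They were Cyr61 (log2 -0.49), a matricellular growth factor, and Thbs1 (-0.46), thrombospondin 1.

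Some of these promoters held the CArG box, the element SRF is known to bind (searched by that name on both strands, over the same 300-base windows). It was found in 6 of 13 called members of the actin list with a promoter in the table (46.2%), in 1 of 12 that were not called (8.33%), and in 1.63% of all promoters. Since the list was chosen from the values, these shares are a description. Those of Actg1 and Cnn2, both called lower, are shown with the match in capitals.
Actg1, chr11:120348531-120348630, minus strand: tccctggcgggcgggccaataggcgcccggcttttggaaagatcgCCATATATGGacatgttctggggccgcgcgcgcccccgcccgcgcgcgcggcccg
Cnn2, chr10:79988499-79988598, plus strand: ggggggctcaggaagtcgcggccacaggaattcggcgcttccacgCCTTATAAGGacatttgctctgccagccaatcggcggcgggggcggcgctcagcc

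Of 22 tested genes of sterol synthesis, known targets of SREBP2, 9 were called lower, against 1.11% of all genes, and 0 higher. All 22 had a negative log2 fold change (median -0.22). BAM15 alone, in a comparison that shares the BAM15 libraries, had lowered 17 of the 22, against 12.2% of all genes. On top of piericidin, oligomycin lowered 0 and raised 1 of the 22 (0.52% and 0.672% of all genes). Within 5% oxygen it lowered 1 and raised 2 (2.22% and 2.04%). Idi1, isopentenyl diphosphate isomerase, was at 85.3, 90.1 and 84.1 CPM with BAM15 and at 66.1, 68.4 and 72.8 CPM with both compounds, without overlap (log2 -0.33 ± 0.06, adjusted p = 0.00147). Its call was lost in 1 of 13 alternative fits, and in 0 of the 6 that left out a library. Hmgcs1, the cytosolic HMG-CoA synthase, fell by 0.31 and Sqle, squalene epoxidase, by 0.32 on the log2 scale. With oligomycin alone Idi1, Hmgcs1 and Sqle fell by 0.50, 0.30 and 0.31, and none of these 3 had a called difference (adjusted p 0.131 to 0.933), while 2 of the 22 had a called difference between the responses. The list's 9 calls became 5 without replicate 1 of oligomycin with BAM15, 5 in the fit of 6 libraries with the replicate block and 1 in that fit without it.

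Smaller decreases were seen in some chaperones of the endoplasmic reticulum and some genes of glycolysis, where the counts stand against 1.11% of all genes called lower. Hspa5 (BiP), Hsp90b1, Pdia4, Pdia6, Calr and Manf, 6 of 20 ER genes tested, were called lower, by 0.16 to 0.31 on the log2 scale, and 0 were called higher. Hspa5 was at 604, 645 and 625 CPM with BAM15 and at 551, 569 and 554 CPM with both. This count was 2 without BAM15 replicate 2 or without replicate 1 of oligomycin with BAM15, and 3 and 1 in the fit of 6 libraries with and without the replicate block. Of 23 genes of glycolysis and lactate export, Tpi1, Eno1, Pkm and Ldha were called lower (-0.16 to -0.21). Ldha, lactate dehydrogenase A, was at 2102, 2257 and 2212 CPM with BAM15 and at 1886, 1932 and 1864 CPM with both compounds, and all of these lay above DMSO (1179 CPM) and oligomycin alone (593 CPM). These 4 calls fell to 0 without BAM15 replicate 2, 2 without BAM15 replicate 3, and 1 without replicate 1 of oligomycin with BAM15 or in the fit of 6 libraries. In the sarcomere list, Acta1, Actc1 and Tpm1 were called lower (3 of 31, log2 -0.10, -0.30 and -0.15), and the count was 1 without BAM15 replicate 2 or without replicate 1 of oligomycin with BAM15 and in the fit of 6 libraries.

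**Figure D5:**
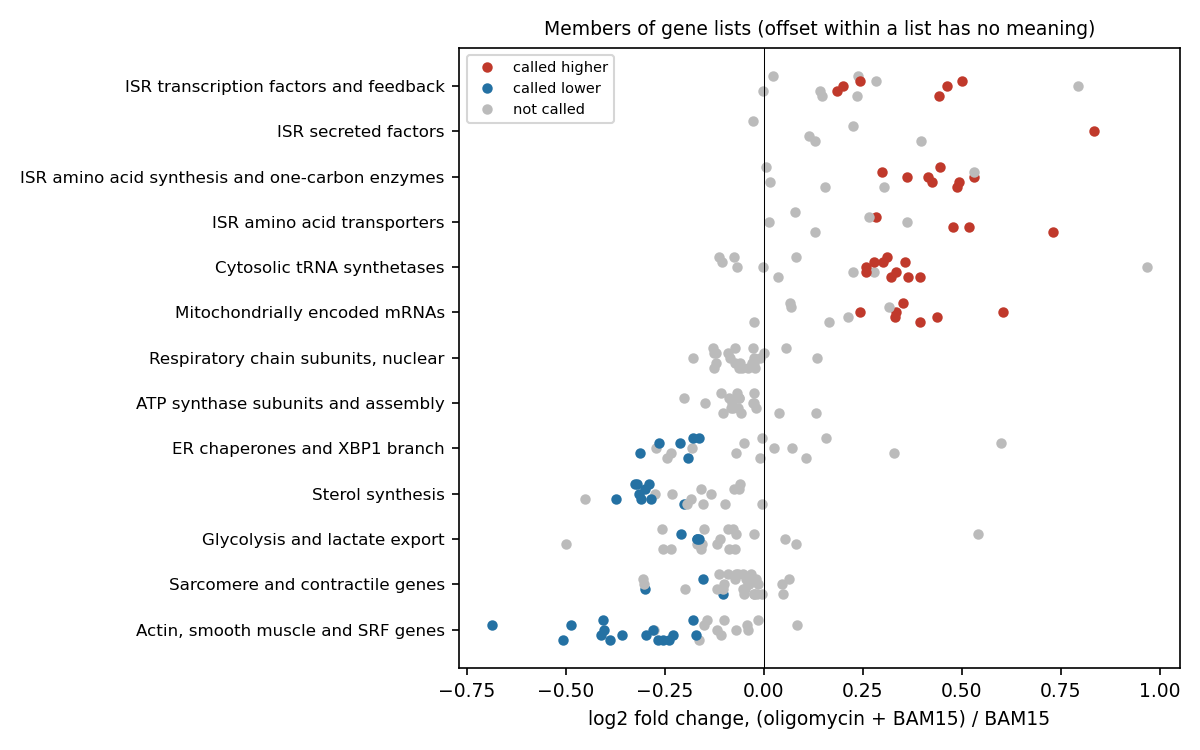
Log2 fold change of oligomycin with BAM15 against BAM15 (x axis) for each tested member of 13 gene lists (rows), coloured by call; the lowest row was chosen after the values were seen. Members of the ISR lists and mitochondrially encoded mRNAs lie mostly right of 0, and sterol synthesis and actin genes left of it.

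The other lists held few calls. Hspa9, the mitochondrial Hsp70 that imports and folds matrix proteins, was the 1 of 15 mitochondrial chaperones and proteases that rose (log2 0.29, adjusted p = 0.000105). Hspa8, the constitutive cytosolic Hsp70, and the small heat shock protein gene Hspb8 rose by 0.17 and 0.20, 2 of 12 heat shock genes, a count that was 1 with the replicate block and without BAM15 replicate 2, and 0 in 4 of the other 5 fits without a library. Acot2, a mitochondrial acyl-CoA thioesterase, was the 1 of 14 PPAR and fatty acid oxidation genes called. No gene was called by edgeR among eIF2α kinases and the OMA1 relay (8 tested), mitochondrial biogenesis regulators (10), inner-membrane carriers (14), MondoA targets (5), HIF targets (16), fatty acid synthesis (10), NRF2 targets (12), metallothioneins (4), immediate early genes (13), myogenic transcription factors (9), atrophy genes (9), p53 targets (11), proliferation genes (18) and chemokines (7). Of their 146 tested members, 31 had an unadjusted p under 0.05, against 1453 of all 12491 genes, and 3 were called by DESeq2's Wald test. In these 14 lists the medians lay between -0.14 and 0.24. The HIF and proliferation lists had medians of -0.11 and -0.14, and 15 of 16 HIF targets had a negative fold change.

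By size alone, the genes with the largest called rises were mostly ones with a called larger rise under oligomycin alone. Cdsn, corneodesmosin, was at 12.5, 15.1 and 16.4 CPM with BAM15 and at 26.2, 24.2 and 26.2 CPM with both, 1.74-fold higher (adjusted p = 0.00116), against 32.2-fold with oligomycin alone. Acot2 was at 52, 50.8 and 53.3 CPM with BAM15 and at 72.7, 81 and 88.2 CPM with both (log2 0.63 ± 0.07, adjusted p = 3.98e-06). Xpot, the exportin that carries tRNA out of the nucleus, rose by 0.66, Gtpbp2, a GTPase that rescues stalled ribosomes, by 0.66, Adh7 by 0.70, Scara5, a ferritin receptor, by 0.63 and the zinc finger gene Zfp945 by 0.74. The glycosyltransferase gene B3gntl1 (0.65) and Isg20l2, a nuclease of ribosomal RNA processing (0.64), rose here and were not called with oligomycin alone (adjusted p = 0.0666 and 0.373), a difference that did not pass the test. B3gntl1, Isg20l2 and Scara5 lost their call in 4 or more of 6 fits without a library (adjusted p up to 0.0707 for Scara5).

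The largest called decreases were modest as well. Tm4sf1, a tetraspanin-like surface protein, was at 59.2, 61.7 and 68 CPM with BAM15 and at 39.6, 39.1 and 39.8 CPM with both compounds (log2 -0.67 ± 0.07, adjusted p = 3.28e-06). Asb2, a ubiquitin ligase subunit of muscle, was at 49.2, 49.9 and 46.5 CPM with BAM15 and at 31.6, 34.8 and 27.1 CPM with both (-0.64), and oligomycin alone lowered it by 2.56 on the log2 scale. Inhba, the activin A subunit (-0.59), Vwa1 (-0.68), Cav2, caveolin 2 (-0.67), Chst12 (-0.60), Cbr2 (-0.51) and Csrp1, a LIM protein of the actin cytoskeleton (-0.52), fell too. Galnt18 (-0.76), Relt (-0.67) and Fabp5 (-0.60) were called from levels of at most 15.2 CPM and lost the call in 3 or more fits without a library. Relt also lost it with the replicate block (adjusted p = 0.0732). Csrp1 lost it in 2 of 6 fits without a library (adjusted p up to 0.1). Galnt18, Relt, Fabp5, B3gntl1, Isg20l2 and Csrp1 lost it in the fit of 6 libraries with the block (adjusted p 0.0546 to 0.226). Without the block, the fit of 6 libraries also did not call Cav2 (0.0608), Chst12 (0.0807), Actg2 (0.0707) and Scara5 (0.0593). The 3 genes called at 2-fold or more, named after their values were seen, were low in counts: Atp2a3, a calcium pump (1.76, 1.56 and 2.21 CPM with BAM15 and 5.53, 4.61 and 3.33 with both), Sh3tc2 (0.185, 0.247 and 0.301 and then 0.75, 1.33 and 2.83) and the predicted gene Gm44792 (5.82, 7.4 and 8.32 and then 2.81, 0 and 0).

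The oligomycin response differed with and without BAM15 for 2327 genes (18.6%) by the interaction test, 1025 (8.21%) with a higher and 1302 (10.4%) with a lower value on top of BAM15. Differences below 0 were widespread among ISR genes: they were called for 11 of 14 regulators, 5 of 6 secreted factors, 12 of 13 synthesis enzymes, 8 of 9 transporters and 16 of 20 tRNA synthetases, with 0 called above 0. Atf3 differed by -5.48 ± 0.22 on the log2 scale, Trib3 by -4.16 ± 0.12, Ddit3 by -3.82 ± 0.11 and Gdf15 by -3.74 ± 0.27. Car6, a secreted carbonic anhydrase, was at 22.5, 19 and 21.1 CPM with oligomycin alone and at 4.41, 5.58 and 4.64 CPM with both compounds, against 1.94, 2.39 and 4.71 with BAM15 and 0.205, 0 and 0.283 with DMSO (difference -6.22). Akr1b7, an aldo-keto reductase (-3.87), and Rad54b, of recombination repair (-3.56), followed.

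Among the largest differences above 0 were genes that oligomycin alone lowered and that did not pass the test on top of BAM15. Gpr35, a G protein-coupled receptor, was at 0.651, 0.428 and 0.381 CPM with oligomycin and 6.88, 6.62 and 9.82 CPM with DMSO, but at 29.1, 26.9 and 30.5 CPM with both compounds and 25.6, 34.2 and 32.2 CPM with BAM15 (difference 3.88 ± 0.32). Scml4 (3.69) and Smim5 (3.64) were also lowered by oligomycin alone and did not pass on top of BAM15. Unlike Gpr35, both were lowered by BAM15 alone, from means of 54.7 to 20.4 CPM and of 25.6 to 19 CPM. For Scml4, values with both compounds lay below those with BAM15 without overlap (log2 -0.32, adjusted p = 0.256). Dapk3, Rnf187, Tysnd1, Dnaaf5 and Hes1 also had differences of 3.08 to 3.58, but varied between the libraries of a group. Rnf187 was at 32.3, 17.7 and 22 CPM with BAM15, 89.3, 29.1 and 20.9 with both, 18.1, 27.5 and 56.9 with oligomycin and 206, 226 and 189 with DMSO. The labels give each sample a code in the form of a position on a plate, without saying of which step, while cells were treated in plates of another format. By these codes no DMSO sample lay in an outer row or column, against 2 of 3 with oligomycin, 2 of 3 with BAM15 and 1 of 3 with both. With the outer position as a covariate the differences were 1.82 for Rnf187 (adjusted p = 0.188), 1.56 for Dapk3 (0.259), 1.85 for Dnaaf5 (0.365) and 1.75 for Tysnd1, which stayed past the threshold. Without replicate 1 of oligomycin with BAM15 the adjusted p was 0.0982 for Rnf187, 0.127 for Tysnd1, 0.361 for Dapk3 and 0.233 for Dnaaf5, and over the 12 fits that left out a library the call was lost in 8 for Dapk3 and in 10 for Dnaaf5. With the replicate block it was 0.0633 for Dapk3 and 0.0568 for Dnaaf5, and in the fit of 12 libraries with the block 0.0952 for Dapk3 and 0.0556 for Tysnd1. The count of differing genes was 1675 with that covariate.

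Oligomycin was also given on top of piericidin, which closes complex I, and within 5% oxygen. It changed 149 genes (1.19%) on top of piericidin and 532 (4.26%) within 5% oxygen. Of the 73 genes that rose on top of BAM15, 38 were also called higher on top of piericidin, against 0.672% of all genes, and 33 within 5% oxygen, against 2.04%. Of the 139 that fell, 23 and 47 were called lower there, against 0.52% and 2.22%. The count on top of piericidin was 89 without piericidin replicate 1 and 85 without replicate 2 of oligomycin with piericidin, and the count within 5% oxygen was 263 in a fit of its 6 libraries alone.

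The responses on top of BAM15 and on top of piericidin differed for 15 genes (0.12%), in comparisons that share no library. All 15 were members of the lists above. These lists were chosen with earlier results of these data known, and that of Actg1 after the values were seen. The membership is therefore a description only. DESeq2's Wald test gave 43 genes for this difference and the fit without a count filter 286, so the membership holds for edgeR with the filter. The 5 (0.04%) with a higher response on top of BAM15 were mt-Co1, mt-Cytb, mt-Nd1, mt-Nd4 and mt-Nd5, with differences of 0.35 to 0.43 on the log2 scale. On top of piericidin itself, 0 of the 13 mitochondrial mRNAs were called higher and 1 lower. The 10 (0.0801%) with a lower response on top of BAM15 were the ISR genes Atf3 (-1.40), Trib3 (-1.02), Chac1 (-0.97), Ddit3 (-0.90), Ppp1r15a (-0.61), Vldlr (-0.54) and Atf4 (-0.51), the sterol genes Nsdhl (-0.56) and Fdft1 (-0.37), and Actg1 (-0.24). Atf3 responded by 1.55 on top of piericidin and Ddit3 by 1.13, against 0.15 and 0.23 on top of BAM15. None of 13 amino acid synthesis enzymes and 20 tRNA synthetases had a called difference. Asns responded by 0.60 and 0.53, and Aars by 0.41 and 0.39.

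Against 5% oxygen, 131 genes (1.05%) differed, 44 (0.352%) with a higher and 87 (0.697%) with a lower response on top of BAM15, a count that was 82 without BAM15 replicate 3 and 83 without replicate 1 of the DMSO group in 5% oxygen. Atf3 (-1.50), Trib3 (-0.92) and the hormone gene Fgf21 (-0.92) responded less on top of BAM15. Of 16 HIF targets, genes known to respond to low oxygen, 13 were called lower with oligomycin within 5% oxygen, against 2.22% of all genes. On top of BAM15 0 were, against 1.11%. The difference was called for 5: Egln3, Ndrg1, P4ha1, P4ha2 and Ero1l (0.38 to 0.88). BAM15 alone, whose libraries are shared, had raised all 16 over DMSO (median 1.58), against 13.2% of all genes. Oligomycin alone lowered 10 and raised 2 of them (16.4% and 16.9% of all genes). Of the 13 mitochondrially encoded mRNAs, 9 were called higher within 5% oxygen, against 2.04% of all genes, with a median of 0.36. In this list 1 of the 13 had a higher and 1 a lower called response on top of BAM15.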

How the data were processed

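RNA of C2C12 cells was sequenced from Smart-seq2 poly(A) libraries run on 2 flow cells. The submitters' processing notes name bcl2fastq 2.20.0.422, and per the study's methods reads were quantified with kallisto 0.44 with bias correction against Ensembl 93 transcripts (GRCm38), and summed per gene with tximport. The deposited values are estimated counts per gene, given by the authors as whole numbers and used as such. All samples were mapped by their column names.

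All 27 untransduced myotube libraries (9 groups of 3) entered 1 fit: genes with 16 counts in every replicate of a group, TMM scaling, edgeR 4.0.16 quasi-likelihood tests (R 4.3.3), Benjamini-Hochberg adjustment within each of 8 comparisons, threshold 0.05. CPM are TMM-scaled, not length-adjusted, and compared only within a gene. SE is the absolute log2 fold change over the root of F. The groups, members and gene lists were chosen with earlier results of these data known, and 2 of 31 lists after the values were seen. Named genes are the 12 in each direction with the largest change in the main comparison and the 8 in each direction for the difference with and without BAM15, among called genes with a mean of at least 50 counts (in the main comparison without overlap of CPM; unnamed predicted genes left out), plus list members and genes the study names. PCA used DESeq2 1.42.0 rlog values.

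Residuals of BAM15 and oligomycin with BAM15 libraries of the same number correlated (r = 0.159, 0.284 and 0.172; other pairs -0.302 to 0.131), so these numbers met the criterion for pairs (every r above 0.1). The reported fit has no block, as in the design, and blocked values stand beside the results they change. Over all groups the mean was -0.00732. No 2 replicates were identical (chi-square per degree of freedom 4.65 to 6.68). Alternatives were DESeq2 size factors, no count filter, DESeq2's Wald test, a replicate block, a covariate for an outer position in the samples' plate codes, fits of the compared groups alone and leaving out each library. The fit was tested on simulated data. Promoters came from a RefSeq table (GRCm38.p6), gene positions from GENCODE M21. The name Dele1 was not matched. Some genes are not reported here.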

Additional observations from a re-analysis of the deposited data

Results flagged for a closer look

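The interaction test set the oligomycin response with BAM15 against 3 other oligomycin responses. It called 2327 genes against oligomycin without BAM15, 15 against oligomycin with piericidin and 131 against oligomycin within 5% oxygen. Among the genes named for the first of these, the response on top of BAM15 was lower, on the log2 scale, for Car6 (-6.22), Atf3 (-5.48), Cdsn (-4.21), Trib3 (-4.16), Akr1b7 (-3.87), Ddit3 (-3.82), Gdf15 (-3.74), Rad54b (-3.56), Ppp1r15a (-3.09) and Atf4 (-1.50). It was higher for Gpr35 (3.88), Scml4 (3.69), Smim5 (3.64), Dapk3 (3.58), Rnf187 (3.57), Tysnd1 (3.41), Dnaaf5 (3.33) and Hes1 (3.08). Groups of 3 libraries were not screened for outlying samples.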

How the results depend on the processing

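Among the 18 genes named for the difference with and without BAM15 and called there, all kept their direction under every alternative run, and Dapk3, Dnaaf5, Rnf187 and Tysnd1 lost their call under at least 1. Without a count filter the main comparison gave 393 genes, 71.2% of them higher against 34.4% of the 212, oligomycin with piericidin 380, and the differences from piericidin and from 5% oxygen 286 and 389. DESeq2's Wald test gave 43 and 209 for those 2 differences, and left 8234 genes, 20 named ones included, without an adjusted p in the main comparison. Fits of only the compared groups gave 72 genes for the main comparison and 263 within 5% oxygen. The replicate block gave 199 genes in the main comparison over 27 libraries (191 shared with the 212) and 196 in the fit of 6, an alternative chosen after seeing the data. Beside the calls given with it above, the block over 27 libraries moved no count of a comparison by over 1.5 times, whereas in the fit of 6 it raised the count from 72 to 196. Leaving out a library gave 108 to 153 genes for the main comparison, 85 to 111 for piericidin, 82 to 107 for the difference from 5% oxygen and a PCA shift of -23.4% to 13.8%, negative without any 1 of the oligomycin libraries. Genes near 0 changed sign: Trp53inp1 in the main comparison was -0.014 with the outer-position covariate and -0.052 to 0.12 without a library, Trp53inp1 with oligomycin alone was -0.22 to 0.0014, and the differences of Tk1 and Ccne1 were -0.042 to 0.13 and -0.0015 to 0.34. The cause was not tested. With 3 libraries a group, small changes of genes with few counts may have been missed.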
